A study of Homo sapiens with 9 samples.

Results

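The genes of the NF-κB pathway were examined in OEC-M1 cells, a head and neck squamous cell carcinoma line, kept in low oxygen while GATA3 or HIF-1α was silenced. The members were 38 genes taken by name, namely 5 NF-κB subunits, 5 proteins of the IκB family, 10 kinases, 8 adaptors and ubiquitin ligases, the ligand TNF with its 2 receptors, 4 genes of ubiquitin-linked feedback and 3 target genes. Chemokines and interleukins were not among them. All 38 were measured, out of 47753 gene names on the array, of which 22439 were RefSeq symbols. The brightest probe stood for each gene, 32 members had 1 probe, and 33 were well above background on all 9 arrays. The exceptions were IRAK2, TRAF3, MYD88, BIRC3 and CYLD, each below that level on at least 1 array.

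The comparison had 3 groups of 3 arrays, each array carrying the RNA of OEC-M1 cells in 1 dye. All cells were transfected for 72 h and held at 1% O2 for 18 h, so no group shows the pathway in normal oxygen. The si-Control cells received a non-targeting siRNA, the GATA3 knockdown cells an siRNA against GATA3, a zinc finger transcription factor, and the HIF-1α knockdown cells an siRNA against HIF1A, the gene for the oxygen-regulated subunit of HIF-1. One siRNA per target was used, so effects of that oligonucleotide and of losing its target cannot be told apart. Each of 3 slides held 1 array of every group, and an array is named here by its slide. The labels do not say whether the 3 arrays of a group came from separate cultures, so the P values measure the spread between these arrays, which may be technical.

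NF-κB is a family of dimeric transcription factors held in the cytoplasm by IκB proteins. Signals from TNF, Toll-like and interleukin receptors pass through adaptors and ubiquitin chains to the IκB kinases, which mark IκB for degradation and free the dimers to enter the nucleus. Many of the genes that are then switched on encode parts of the pathway itself, among them IκBα and the ubiquitin-editing enzyme TNFAIP3, and these close a negative feedback loop. In squamous carcinoma cells the pathway is known for its role in survival and inflammation, and it is also known to cross-talk with HIF-1.

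Many members are themselves NF-κB targets, so promoter sequences are given first. They run 5′ to 3′ and cover the 250 bases before the annotated transcript start, from RefSeq on GRCh38.p14. These 4 are shown because TNFAIP3, BIRC3 and NFKBIA are textbook NF-κB targets in the list and ICAM1, also a target gene, gave its largest difference. Capitals mark matches to the κB consensus in TNFAIP3, BIRC3 and NFKBIA, and in ICAM1 the letters CACGC, the hypoxia response core GCGTG read on the other strand. The core was searched as ACGTG or GCGTG on either strand and is not particular to ICAM1. In TNFAIP3 the letters CACGTG hold ACGTG on both strands, with overlapping matches that begin at -78 and -77. In BIRC3 GCGTG begins at -20. These matches are left in lower case. A GATA motif at -59 in BIRC3 is also in lower case.
ICAM1, chr19:10270870-10271119, plus strand: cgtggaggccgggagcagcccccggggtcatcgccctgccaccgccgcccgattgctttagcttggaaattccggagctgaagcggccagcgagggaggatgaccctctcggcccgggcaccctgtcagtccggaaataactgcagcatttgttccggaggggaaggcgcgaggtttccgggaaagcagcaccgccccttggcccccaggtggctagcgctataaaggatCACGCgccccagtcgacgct
TNFAIP3, chr6:137867009-137867258, plus strand: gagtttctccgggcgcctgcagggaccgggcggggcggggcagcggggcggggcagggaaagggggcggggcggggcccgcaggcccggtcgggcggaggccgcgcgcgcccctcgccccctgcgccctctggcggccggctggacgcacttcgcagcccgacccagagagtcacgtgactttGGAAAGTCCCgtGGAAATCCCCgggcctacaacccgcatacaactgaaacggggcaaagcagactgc
BIRC3, chr11:102317234-102317483, plus strand: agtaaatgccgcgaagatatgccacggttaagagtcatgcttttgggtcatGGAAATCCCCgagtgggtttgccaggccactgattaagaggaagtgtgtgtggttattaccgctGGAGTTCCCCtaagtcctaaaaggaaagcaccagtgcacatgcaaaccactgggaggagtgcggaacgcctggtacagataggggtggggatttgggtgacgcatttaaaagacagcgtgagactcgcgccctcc
NFKBIA, chr14:35404750-35404999, minus strand: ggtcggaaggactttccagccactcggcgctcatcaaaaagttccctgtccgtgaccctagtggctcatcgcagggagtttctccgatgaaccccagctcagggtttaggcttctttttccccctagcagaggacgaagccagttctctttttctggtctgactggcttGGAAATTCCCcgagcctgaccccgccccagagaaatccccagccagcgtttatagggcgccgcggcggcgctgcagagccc

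Shorter stretches from other members carry the same consensus in capitals, with 8 bases on each side. They are shown because 3 of these genes, TRAF3, NFKBIB and NFKBIZ, passed the threshold between the knockdowns, and NFKB1 and REL are subunits.
TRAF3, chr14:102777408-102777433, plus strand: ggcgcgccGGGGATTTCCagcgcgcg
NFKBIB, chr19:38899933-38899959, plus strand: gcgtggtgGGGAATTTCCCgcagggcg
NFKBIZ, chr3:101827759-101827784, plus strand: tttggtctGGGAATTTCCagtgtgca
NFKB1, chr4:102501302-102501327, plus strand: acgtcagtGGGAATTTCCagccagga
REL, chr2:60881519-60881545, plus strand: tcagccgcGGGAAATTCCCctcccgcc

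**Figure D1:**
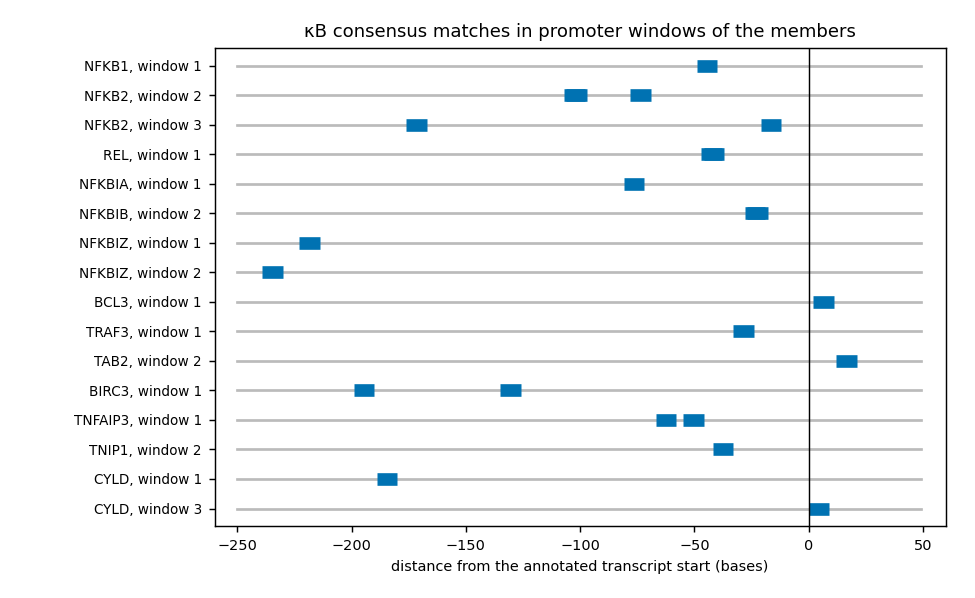
Positions of κB consensus matches (blue blocks) in the promoter windows of the members that hold one, against the distance in bases from the annotated transcript start, with numbered windows where a gene has several starts. The 2 matches of TNFAIP3 begin at -67 and -55 and those of BIRC3 at -199 and -135, counted from the start.

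The κB consensus, searched on both strands from 250 bases before to 50 bases after each start, occurred in 16 of 55 windows of the members (29.1%) and in 2075 of 35116 windows of all genes (5.91%). These windows belonged to 34 members, of which 13 had a match. The genes with a match were NFKB1, NFKB2 and REL among the subunits, NFKBIA, NFKBIB, NFKBIZ and BCL3 in the IκB family, the adaptors and ligases TRAF3, TAB2 and BIRC3, and TNFAIP3, TNIP1 and CYLD in the feedback group. The hypoxia response core, ACGTG or GCGTG on either strand, occurred in 27 of 55 member windows (49.1%) and in 48.4% of all windows. The GATA motif was searched as AGATAA and AGATAG, and also with a leading T as TGATAA and TGATAG, on either strand. It occurred in 7 member windows (12.7%) and in 25% of all windows. RELB, NFKBIE, IKBKB and RIPK2 had no window in the table used. A match describes letters in a window and is not a measure of binding. The κB search used a fixed pattern, so a site that departs from it was not counted. ICAM1 had no match, which does not show that its promoter lacks a κB site.

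The silenced genes were low where the labels place them. On the log2 scale GATA3 measured 9.84 ± 0.49 (SD, n = 3) after its knockdown and 11.10 ± 0.39 in si-Control cells, with no overlap of arrays. HIF1A measured 14.40 ± 0.24 after its knockdown and 16.72 ± 0.47 in si-Control cells, also with no overlap. Between 74.3% and 88.5% of spots were well above background on each array. Of 8 epithelial markers 7 were well above background on every array, and KRT5, a basal keratin, was not on any. Of 9 markers of blood, endothelial and fibroblast cells 7 were well above background on every array, among them PTPRC and PDGFRB. In si-Control cells of this carcinoma line these 2 had mean log2 intensities of 16.13 and 16.21. Being well above background therefore does not by itself establish expression of a gene, for markers or members. Why these probes were bright was not tested.

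Arrays of the same group did not place the members at the same level. The median deviation from the group means, over the 37 members measured on every array, was -0.39 on si-Control array 1 and 0.53 on si-Control array 3, while over all genes no array deviated by more than 0.07 in either direction. In GATA3 knockdown the members' median deviation was -0.38 on array 2 and 0.34 on array 3. In HIF-1α knockdown it lay between -0.16 and 0.20. The part of this array-to-array shift in the differences below was not tested.

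In GATA3 knockdown cells, 27 of 38 members lay above si-Control cells and 11 below, with a median log2 difference of 0.32 against -0.02 over all 47720 genes tested. Only ICAM1 and CHUK passed the study's threshold, an unadjusted P of 0.05 or less in limma, and both were higher. That is 5.26% of members, against 2.97% of all genes in either direction with 1.59% higher and 1.38% lower. RNA of whole cultures was measured, so fewer cells of a type and less RNA per cell cannot be told apart. For 3 members (7.89%), ICAM1, CHUK and NFKB2, the arrays of the 2 groups did not overlap, against 7.59% of all genes. After Benjamini-Hochberg adjustment in limma 0 members and 0 genes passed. In the same comparison all 8 epithelial markers were lower, with a median of -0.30 and 0 past the threshold, as were 6 of 9 markers of blood, endothelial and fibroblast cells, of which DCN passed at -1.08. Their part in the members' differences was not tested. Within slides, the median difference of the members was 0.78 on slide 1, -0.08 on slide 2 and 0.16 on slide 3. The median was 0.15 without si-Control array 1 and 0.19 without GATA3 knockdown array 3. The count of 2 members also rested on single arrays. It was 13 without si-Control array 3, where 12.7% of all genes passed. It was 7 without GATA3 knockdown array 2 (4.69% of all genes) and 1 without si-Control array 2 (2% of all genes). With slide as a block in the model 6 members and 4.97% of all genes passed, adding RELA, TRAF3 and BIRC3 on the higher side and MYD88 on the lower side.

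In HIF-1α knockdown cells, 12 members lay above the same si-Control arrays and 26 below, with a median of -0.17 against -0.01 over all 47368 genes tested. TNFAIP3 and ICAM1 passed the unadjusted threshold and both were lower, which is 5.26% of members against 5.24% of all genes, of which 1.97% were higher and 3.27% lower. The arrays overlapped for all 38 members, while 16.3% of all genes did not overlap. After adjustment in limma 0 members and 0 genes passed. The members' median difference was -0.04 on slide 1, 0.07 on slide 2 and -0.66 on slide 3. The median was -0.027 without si-Control array 3, -0.067 without HIF-1α knockdown array 1, -0.33 without si-Control array 1 and -0.26 without HIF-1α knockdown array 2. The count was 0 without si-Control array 2, without si-Control array 3 or without HIF-1α knockdown array 2. There 5.69%, 3.56% and 5.04% of all genes passed, respectively. It was 7 without si-Control array 1, where 10.2% of all genes passed. Without HIF-1α knockdown array 1 there were 2, both higher, while 2.98% of all genes passed. With slide as a block 5 members and 8.42% of all genes passed, adding NFKB1 and RELA on the lower side and CHUK on the higher side.

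Between the 2 knockdowns, 28 members were higher with GATA3 silenced and 10 with HIF-1α silenced, with a median log2 difference of 0.36 against 0.000848 over all 47356 genes tested. Here 9 members passed the unadjusted threshold. RELA, NFKBIB, NFKBIE, NFKBIZ, TRAF3, BIRC3, TNFAIP3 and ICAM1 were higher in GATA3 knockdown and TNFAIP2 was lower. This was 23.7% of members against 12.1% of all genes, of which 6.98% were higher and 5.09% lower. After adjustment in limma 0 members passed and 2 of all genes did (0.00422%). The arrays of the 2 knockdowns did not overlap for 15 members (39.5%), against 25.4% of all genes. Slide medians of the members were 0.60, -0.07 and 0.83, so slide 2 did not share the shift of the other slides. The median was 0.21 without GATA3 knockdown array 3. The count was 14 without si-Control array 3, where 20.1% of all genes passed. It was between 7 and 12 when any other array was left out, where 5.71% to 20.6% of all genes passed. With slide as a block 14 members and 18.8% of all genes passed, adding NFKB1, NFKBIA, MAP3K7 and BIRC2 on the higher side and RELB on the lower side. All 3 comparisons draw on the same 9 arrays, and those with si-Control cells share its 3 arrays, so they are not independent of each other.

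**Figure D2:**
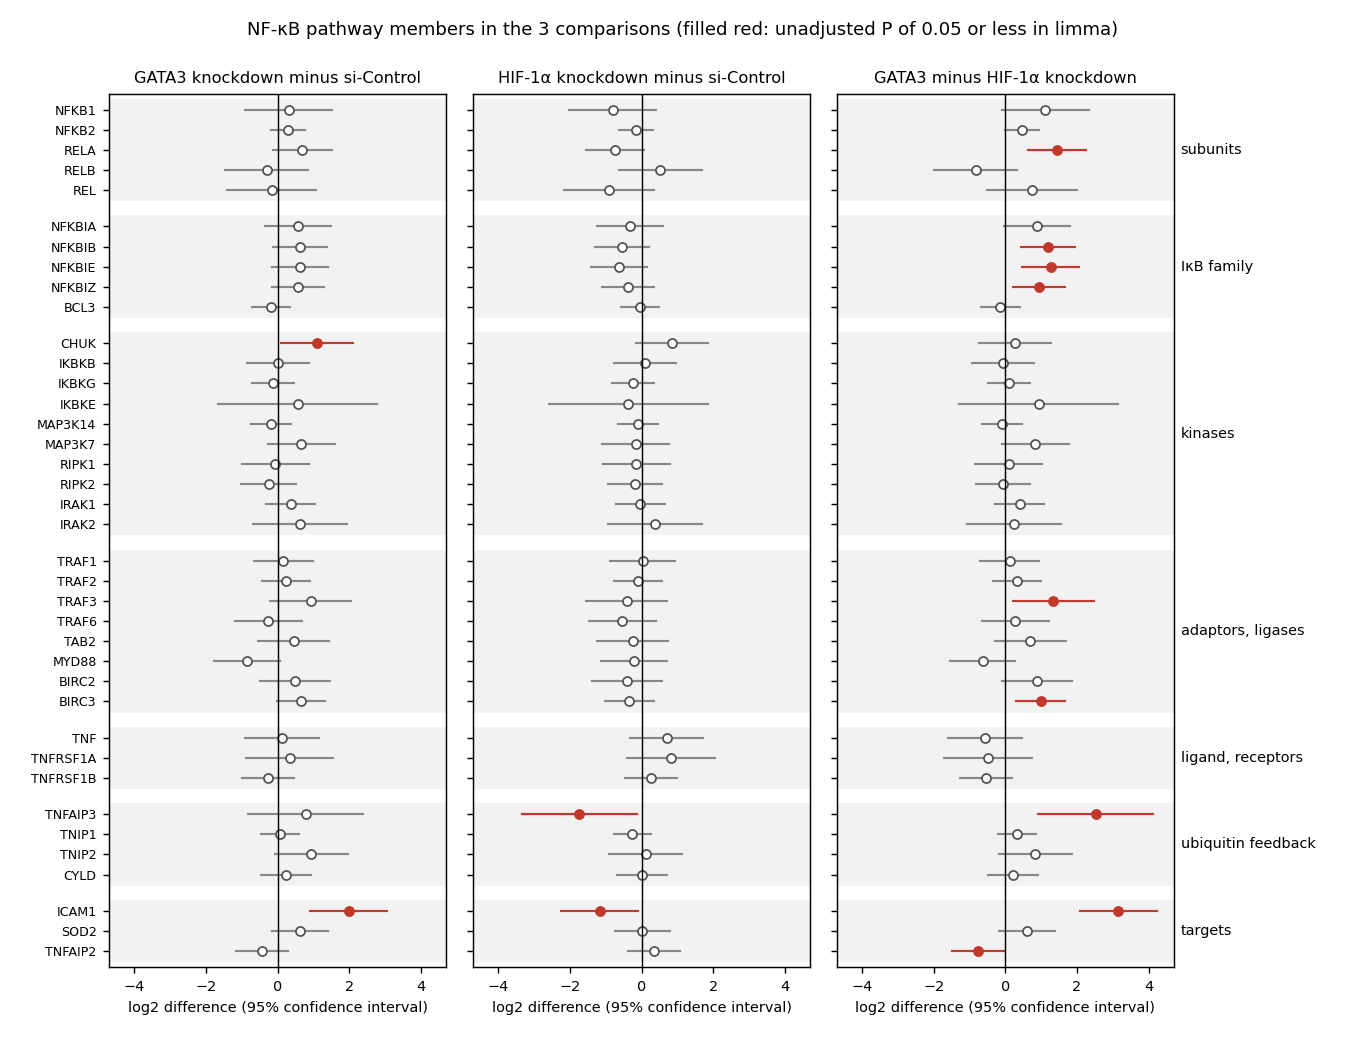
Log2 difference of each of the 38 members in the 3 comparisons, grouped by role, with its 95% confidence interval from limma as a line and red for an unadjusted P of 0.05 or less. There are 2 red points in each comparison with si-Control cells and 9 between the knockdowns, where ICAM1 at 3.15 lies farthest from 0.

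Epithelial markers and those of other cell types also differed between the knockdowns. With GATA3 silenced 7 of 8 epithelial markers were lower than with HIF-1α silenced, of which KRT8 and KRT18 passed the unadjusted threshold. All 9 markers of blood, endothelial and fibroblast cells were lower there too, of which DCN passed. The summed intensity of the epithelial markers lay between 421838 and 784189 with GATA3 silenced, between 686688 and 948391 with HIF-1α silenced and between 621631 and 935471 in si-Control cells. For 8 markers of the other cell types measured on every array it lay between 125309 and 212851, between 195348 and 222066 and between 90113.3 and 219458, respectively. Their part in the members' differences was not tested.

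Among the targets, ICAM1, a surface adhesion molecule that binds leukocyte integrins, differed most. Its log2 intensity was 13.28, 14.17 and 15.36 on si-Control arrays 1, 2 and 3, 16.56, 15.77 and 16.43 in GATA3 knockdown, and 12.61, 13.30 and 13.39 in HIF-1α knockdown. Every GATA3 knockdown array lay above every other array. HIF-1α knockdown overlapped si-Control cells through si-Control array 1, although on each slide its value was the lower of the pair. ICAM1 was 3.95-fold higher in GATA3 knockdown than in si-Control cells (log2 difference 1.98 ± 0.48 SE, adjusted P = 1 in limma). In HIF-1α knockdown it was 2.25-fold lower (log2 difference -1.17 ± 0.48 SE, adjusted P = 0.822 in limma). Between the knockdowns the fold was 8.90 (log2 difference 3.15 ± 0.48 SE, adjusted P = 0.129 in limma). With slide as a block the adjusted P between the knockdowns was 0.0445 in limma, which passed. In that fit 118 of 47353 genes passed after adjustment, against 2 of 47356 without the block. The differences from GATA3 knockdown passed the unadjusted threshold whichever array was left out. The difference of HIF-1α knockdown from si-Control cells lost it without si-Control array 2 or 3 or without HIF-1α knockdown array 1 or 2, and it was -0.62 without si-Control array 3.

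TNFAIP2, a cytokine-induced gene, went the other way between the knockdowns. Its log2 intensities were 15.55, 14.71 and 15.54 in GATA3 knockdown, 15.86, 16.18 and 16.07 with HIF-1α silenced, and 15.25, 15.61 and 16.24 in si-Control cells. The knockdown arrays did not overlap, and si-Control arrays spanned both. The log2 difference of -0.77 ± 0.33 (SE) passed the unadjusted threshold, with an adjusted P of 0.407 in limma. It was no longer past the threshold with the processed signal at the 75th percentile (-0.72), with 75th percentile scaling after normexp (-0.70), in the authors' log2 table (-0.75), or without si-Control array 2, GATA3 knockdown array 2 or HIF-1α knockdown array 2 or 3, and it was -0.47 without GATA3 knockdown array 2. SOD2, the mitochondrial superoxide dismutase, had log2 differences of 0.62 and 0.02 from si-Control cells in GATA3 and HIF-1α knockdown and of 0.60 between them, none past the threshold. Its GATA3 and HIF-1α knockdown arrays did not overlap, and on slide 2 they differed by 0.06.

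Of the feedback genes, TNFAIP3 varied most. It encodes an enzyme that removes activating ubiquitin chains from the kinase complex. Its log2 intensity was 10.49, 12.04 and 13.62 on si-Control arrays 1, 2 and 3, a spread wider than that of any other member in this group except IKBKE. It was 13.26, 11.80 and 13.43 in GATA3 knockdown and 10.26, 9.78 and 10.89 with HIF-1α silenced. The knockdowns did not overlap each other, and both overlapped si-Control cells. TNFAIP3 was 3.35-fold lower in HIF-1α knockdown than in si-Control cells (log2 difference -1.74 ± 0.72 SE, adjusted P = 0.822 in limma), with slide differences of -0.24, -2.26 and -2.73. That call was lost without si-Control array 2 or 3 or without HIF-1α knockdown array 1 or 2, and the difference was -0.95 without si-Control array 3. In GATA3 knockdown the difference of 0.78 from si-Control cells did not pass, and slide 1 gave 2.77 and slides 2 and 3 gave -0.24 and -0.19. Between the knockdowns TNFAIP3 was 5.75-fold higher in GATA3 knockdown (log2 difference 2.52 ± 0.72 SE, adjusted P = 0.322 in limma). On slides 1, 2 and 3 that difference was 3.01, 2.02 and 2.54, and it passed the unadjusted threshold whichever array was left out.

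The other feedback genes did not pass in any comparison. TNIP1 and TNIP2 encode proteins that bind it, and CYLD encodes another deubiquitinase. Between the knockdowns TNIP1 differed by 0.32 and TNIP2 by 0.83 on the log2 scale. TNIP2 was lower on slide 1 (-0.86) and higher on slides 2 (1.57) and 3 (1.76). CYLD was not well above background on any GATA3 knockdown array and on only 1 array with HIF-1α silenced, so no difference is given for it.

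**Figure D3:**
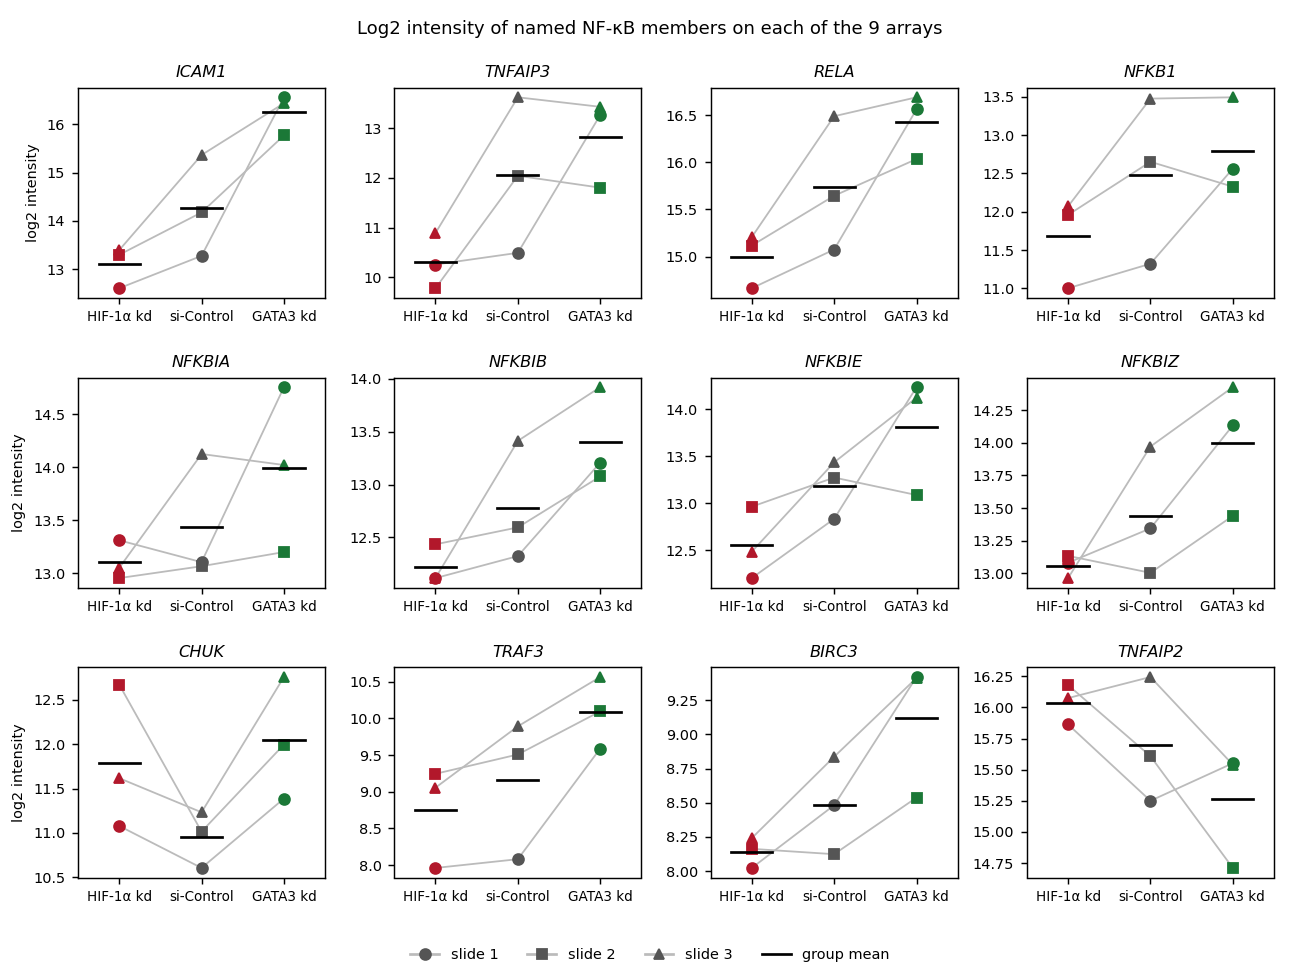
Log2 intensity of 12 members on each of the 9 arrays, with a panel for each gene, symbols for the slide, grey lines joining the arrays of 1 slide and black bars for the group means. ICAM1 in GATA3 knockdown lies at 15.77 or above on every array, and TNFAIP3 on the si-Control arrays runs from 10.49 to 13.62.

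Among the subunits, RELA, the main transactivating partner of classical NF-κB, passed the threshold between the knockdowns. It had log2 intensities of 16.56, 16.03 and 16.69 in GATA3 knockdown, 14.67, 15.12 and 15.21 with HIF-1α silenced and 15.08, 15.65 and 16.49 in si-Control cells. The knockdowns did not overlap, and the si-Control arrays ranged across the gap between them. RELA was 2.70-fold higher in GATA3 knockdown than with HIF-1α silenced (log2 difference 1.43 ± 0.37 SE, adjusted P = 0.28 in limma), and it passed whichever array was left out. A second RELA probe gave 1.07 and also passed. From si-Control cells RELA differed by 0.69 in GATA3 knockdown and by -0.74 with HIF-1α silenced, with the same sign on all 3 slides each time. Neither passed, and with slide as a block both did.

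NFKB1 encodes the precursor of the classical DNA-binding subunit. It had log2 intensities of 11.32, 12.65 and 13.48 on the si-Control arrays, 12.56, 12.33 and 13.49 in GATA3 knockdown and 11.00, 11.96 and 12.07 with HIF-1α silenced. The knockdowns did not overlap, while each overlapped si-Control cells. The difference between the knockdowns was 1.12 ± 0.54 (SE), and those from si-Control cells were 0.31 and -0.81. NFKB2, the precursor used in the non-canonical branch, differed by 0.46 between the knockdowns with no overlap. RELB, its usual partner, was the subunit with the opposite sign there, at -0.83, lower in GATA3 knockdown on all 3 slides. REL, best known from lymphoid cells, differed by 0.74, with -0.60 on slide 2.

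The IκB family was mostly higher in GATA3 knockdown than after HIF-1α knockdown. NFKBIB, NFKBIE and NFKBIZ passed the unadjusted threshold and NFKBIA and BCL3 did not, with a family median of 0.94. NFKBIA encodes IκBα, the best known inhibitor and a direct NF-κB target. It had log2 intensities of 13.10, 13.06 and 14.12 on the si-Control arrays, 14.75, 13.20 and 14.02 in GATA3 knockdown and 13.31, 12.95 and 13.05 with HIF-1α silenced. All groups overlapped, because GATA3 knockdown array 2 lay among the HIF-1α knockdown arrays. Its difference between the knockdowns was 0.89 ± 0.42 (SE), and those from si-Control cells were 0.56 and -0.33.

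NFKBIB, which encodes IκBβ, had log2 intensities of 13.21, 13.08 and 13.92 in GATA3 knockdown, 12.11, 12.43 and 12.11 with HIF-1α silenced and 12.32, 12.59 and 13.41 in si-Control cells. The knockdowns did not overlap, and the difference was 1.18 ± 0.34 (SE, adjusted P = 0.322 in limma). A second NFKBIB probe gave 0.30 and did not pass, so the size of the difference depended on the probe. NFKBIE, which encodes IκBε, had 14.23, 13.09 and 14.12 in GATA3 knockdown, 12.21, 12.96 and 12.49 with HIF-1α silenced and 12.84, 13.27 and 13.43 in si-Control cells. The knockdowns were separate, though on slide 2 by only 0.12, and the difference was 1.26 ± 0.35 (SE, adjusted P = 0.315 in limma). Both genes passed whichever array was left out.

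NFKBIZ encodes an atypical IκB that acts in the nucleus as a cofactor of NF-κB. Its log2 intensities were 14.13, 13.44 and 14.43 in GATA3 knockdown, 13.08, 13.13 and 12.96 with HIF-1α silenced and 13.34, 13.00 and 13.97 in si-Control cells. The HIF-1α knockdown arrays lay close together and below all GATA3 knockdown arrays. The difference was 0.94 ± 0.33 (SE, adjusted P = 0.377 in limma), and without GATA3 knockdown array 3 it was 0.73 and did not pass. BCL3, another nuclear member, was bright on all arrays and differed by -0.14 between the knockdowns.

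Of the 10 kinases 0 passed the threshold between the knockdowns. CHUK, which encodes the kinase IKKα, had log2 intensities of 10.61, 11.01 and 11.23 in si-Control cells, 11.39, 12.00 and 12.76 in GATA3 knockdown and 11.08, 12.67 and 11.62 with HIF-1α silenced. Both knockdowns lay above si-Control cells, without overlap only for GATA3 knockdown. The difference was 1.1 ± 0.45 in GATA3 knockdown (SE, adjusted P = 1 in limma) and 0.84 ± 0.45 in HIF-1α knockdown (SE). The GATA3 knockdown call was lost without si-Control array 1 or 2 or without GATA3 knockdown array 2 or 3, with a lowest value of 0.74.

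IKBKB, the catalytic partner of CHUK in the IκB kinase complex, differed by 0.02 and 0.09 from si-Control cells. IKBKG, the regulatory subunit, differed by -0.13 and -0.24, and its reading is uncertain because the genome holds a near-identical copy. IKBKE, an IκB kinase-related enzyme, was the most variable member, with 12.67, 15.85 and 13.82 on the si-Control arrays, 15.11, 15.46 and 13.45 in GATA3 knockdown and 12.86, 15.85 and 12.52 with HIF-1α silenced. It was high on slide 2 in every group, and its difference between the knockdowns was 0.93 ± 1.00 (SE).

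No upstream kinase passed in any comparison. MAP3K7, which encodes TAK1, differed by 0.83 between the knockdowns with no overlap, and by 0.07 on slide 2. MAP3K14, the kinase of the non-canonical branch, RIPK1 and RIPK2 differed by -0.09, 0.09 and -0.07. The IL-1 receptor-associated kinases IRAK1 and IRAK2 differed by 0.40 and 0.25. A second IRAK1 probe gave 1.37 and passed, so the probes of that gene disagreed on the call.

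Among adaptors and ligases, TRAF3 and BIRC3 passed between the knockdowns. TRAF3 restrains the non-canonical branch by keeping MAP3K14 low. Its log2 intensities were 9.59, 10.10 and 10.57 in GATA3 knockdown, 7.96, 9.25 and 9.06 with HIF-1α silenced and 8.08, 9.51 and 9.89 in si-Control cells. The knockdowns did not overlap, and within slides the difference was 1.63, 0.85 and 1.51. Over the slides together it was 1.33 ± 0.51 (SE, adjusted P = 0.387 in limma). Without GATA3 knockdown array 2 or 3 or HIF-1α knockdown array 1 it did not pass, with a lowest value of 0.93.

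BIRC3, a ubiquitin ligase of TNF receptor complexes and a known NF-κB target, was dim, well above background on 5 of 9 arrays. It had log2 intensities of 9.42, 8.54 and 9.41 in GATA3 knockdown, 8.02, 8.16 and 8.24 with HIF-1α silenced and 8.48, 8.12 and 8.84 in si-Control cells. The knockdowns did not overlap. The difference was 0.98 ± 0.30 (SE, adjusted P = 0.345 in limma), and it passed whichever array was left out. BIRC2, the related ligase, differed by 0.88.

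The other adaptors did not pass in any comparison with the brightest probe. TRAF1, TRAF2 and TRAF6 differed by 0.12, 0.33 and 0.28 between the knockdowns, with TRAF1 fitted without si-Control array 1 and HIF-1α knockdown array 1, where its spot was missing. TAB2, which links ubiquitin chains to MAP3K7, differed by 0.70 between the knockdowns and by -0.25 from si-Control cells in HIF-1α knockdown. Another TAB2 probe, well above background on 7 arrays, gave -1.05 in HIF-1α knockdown and passed, so the probes of this gene disagreed on the call. MYD88, the adaptor of Toll-like and interleukin-1 receptors, was lower in GATA3 knockdown than in si-Control cells on all 3 slides, by 0.85 on average. It passed, in the lower direction, with slide as a block, with the processed signal at the 75th percentile and in the authors' log2 table.

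The ligand and the receptors were the one role with all members lower in GATA3 knockdown than with HIF-1α silenced. TNF differed by -0.57, TNFRSF1A by -0.49 and TNFRSF1B by -0.53, and none passed. In HIF-1α knockdown TNF, TNFRSF1A and TNFRSF1B were 0.70, 0.83 and 0.27 above si-Control cells. Those 3 differences were 1.87, 2.41 and 1.21 on slide 3, where si-Control array 3 was the lowest of its group for all of them, while on slides 1 and 2 they lay between -0.42 and 0.50.

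**Figure D4:**
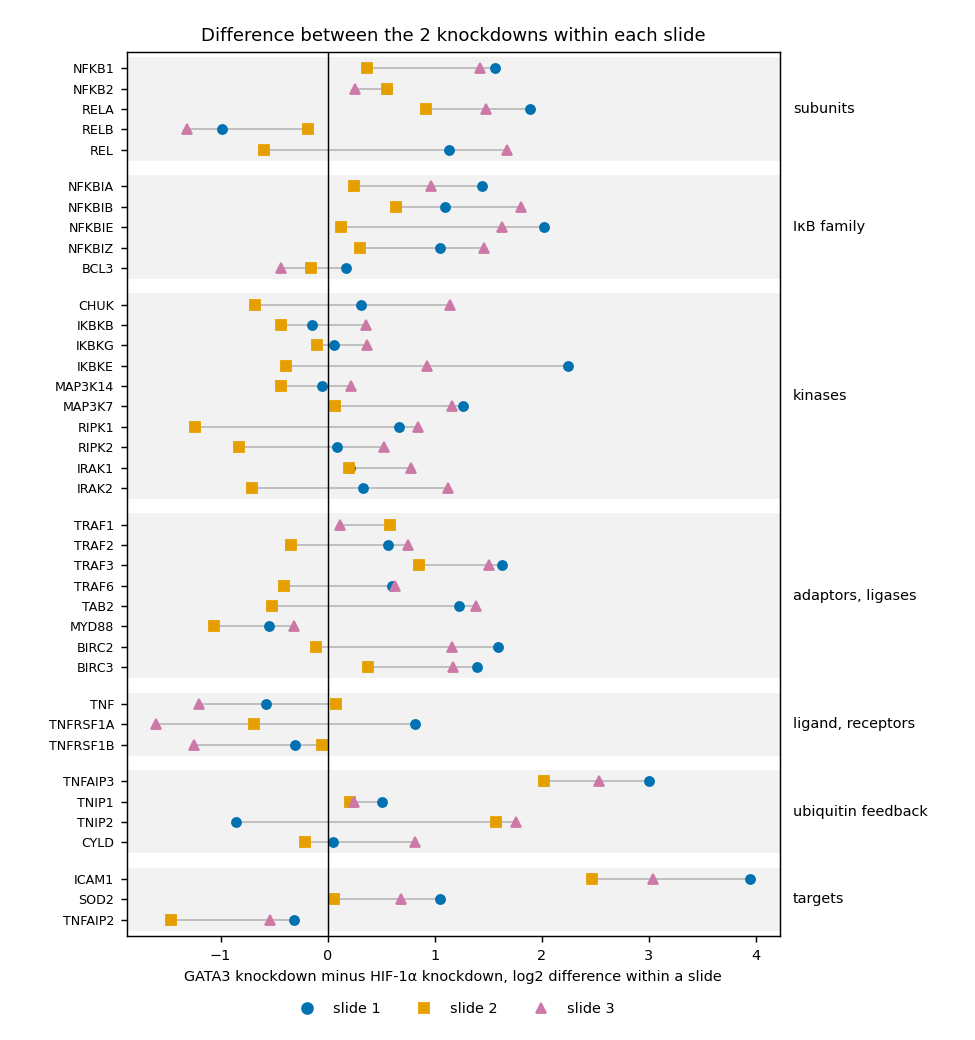
Log2 difference between the GATA3 knockdown and the HIF-1α knockdown array of the same slide for each of the 38 members, grouped by role, with a symbol for each slide. ICAM1, TNFAIP3, RELA, NFKBIB and TRAF3 lie to the right of 0 by 0.64 or more on every slide, and TNFRSF1A changes sign between slides.

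Other genes of the pathway were read from lists of 44 signalling components and 29 target genes, all measured. In GATA3 knockdown 21 of 29 targets lay above si-Control cells and 4 passed the unadjusted threshold, all higher, namely TNFAIP6, CD83, PTX3 and CSF2. In HIF-1α knockdown 18 were lower and 3 passed, all lower, namely CSF3, PTX3 and PTGS2. Between the knockdowns 20 were higher in GATA3 knockdown and 9 passed, all higher, where 6.98% of all genes passed as higher. These were TNFAIP6, PTX3, ZC3H12A, PLAUR, CSF3, SELE, SAA1, CSF2 and PTGS2. In limma 0 of them passed after adjustment without a block for the slide. The shares of the list past the threshold were 13.8%, 10.3% and 31% in the 3 comparisons, against 2.97%, 5.24% and 12.1% of all genes. The median of the list was 0.23, -0.15 and 0.55 in the 3 comparisons.

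TNFAIP6, a secreted hyaluronan-binding protein, was well above background on all 3 GATA3 knockdown arrays, on 2 of 3 si-Control arrays and on 1 of 3 HIF-1α knockdown arrays, so its low values lie near background. It had log2 intensities of 7.91, 8.06 and 9.44 in si-Control cells, 10.37, 10.84 and 10.79 in GATA3 knockdown and 8.35, 8.30 and 8.60 with HIF-1α silenced. Every GATA3 knockdown array was above every other array, by a log2 difference of 2.20 ± 0.38 from si-Control cells (SE, adjusted P = 1 in limma) and 2.25 ± 0.38 from HIF-1α knockdown (SE, adjusted P = 0.142 in limma). These calls passed the unadjusted threshold whichever array was left out. In the fit with slide as a block, where 118 genes passed after adjustment, the adjusted P between the knockdowns was 0.0475 in limma.

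PTX3, a soluble pattern recognition molecule, alone of the 29 passed against si-Control cells in both knockdowns, as did ICAM1 among the members. Both genes had opposite signs there, so their pass between the knockdowns follows and is not separate support. PTX3 had log2 intensities of 8.86, 9.0 and 9.62 in si-Control cells, 9.80, 9.70 and 10.35 in GATA3 knockdown and 8.18, 8.17 and 8.78 with HIF-1α silenced, with no overlap between any 2 groups. It was 0.79 higher than in si-Control cells in GATA3 knockdown and 0.78 lower in HIF-1α knockdown, and the knockdowns differed by 1.58 ± 0.30 (SE, adjusted P = 0.159 in limma). Against si-Control cells each call passed in 6 of 9 fits with an array left out, and the difference was 0.60 in GATA3 knockdown without its array 3 and -0.57 with HIF-1α silenced without si-Control array 3. Between the knockdowns it passed in all 9. The slide differences between the knockdowns were 1.62, 1.53 and 1.58. In the fit with slide as a block, where 118 genes passed after adjustment, the adjusted P was 0.0445 in limma. CSF3, a granulocyte growth factor, was 1.16 lower in HIF-1α knockdown than in si-Control cells, but the mean of its 2 probes gave -0.30 and did not pass.

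Smaller or less stable calls made up the rest. Between the knockdowns PLAUR, the urokinase receptor, differed by 1.31, ZC3H12A, an RNase that degrades inflammatory transcripts, by 1.33, SAA1, an acute-phase protein, by 0.99, the adhesion molecule SELE by 1.00 and PTGS2, the inducible cyclooxygenase, by 0.73. Of these SAA1 passed whichever array was left out, and it was well above background on only some arrays of si-Control cells and HIF-1α knockdown. PTGS2 in HIF-1α knockdown, at -0.70, passed in 1 of 9 fits with an array left out. Between the knockdowns PLAUR passed in 6, ZC3H12A in 5, SELE in 4 and PTGS2 in 3 of 9 such fits, and SELE was 0.64 without GATA3 knockdown array 1 and 0.57 without HIF-1α knockdown array 3. CD83 was 0.93 higher in GATA3 knockdown than in si-Control cells, passed in 6 of 9 such fits and was 0.57 without si-Control array 1. CSF2 was not well above background on any array, so no fold is given for it.

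**Figure D5:**
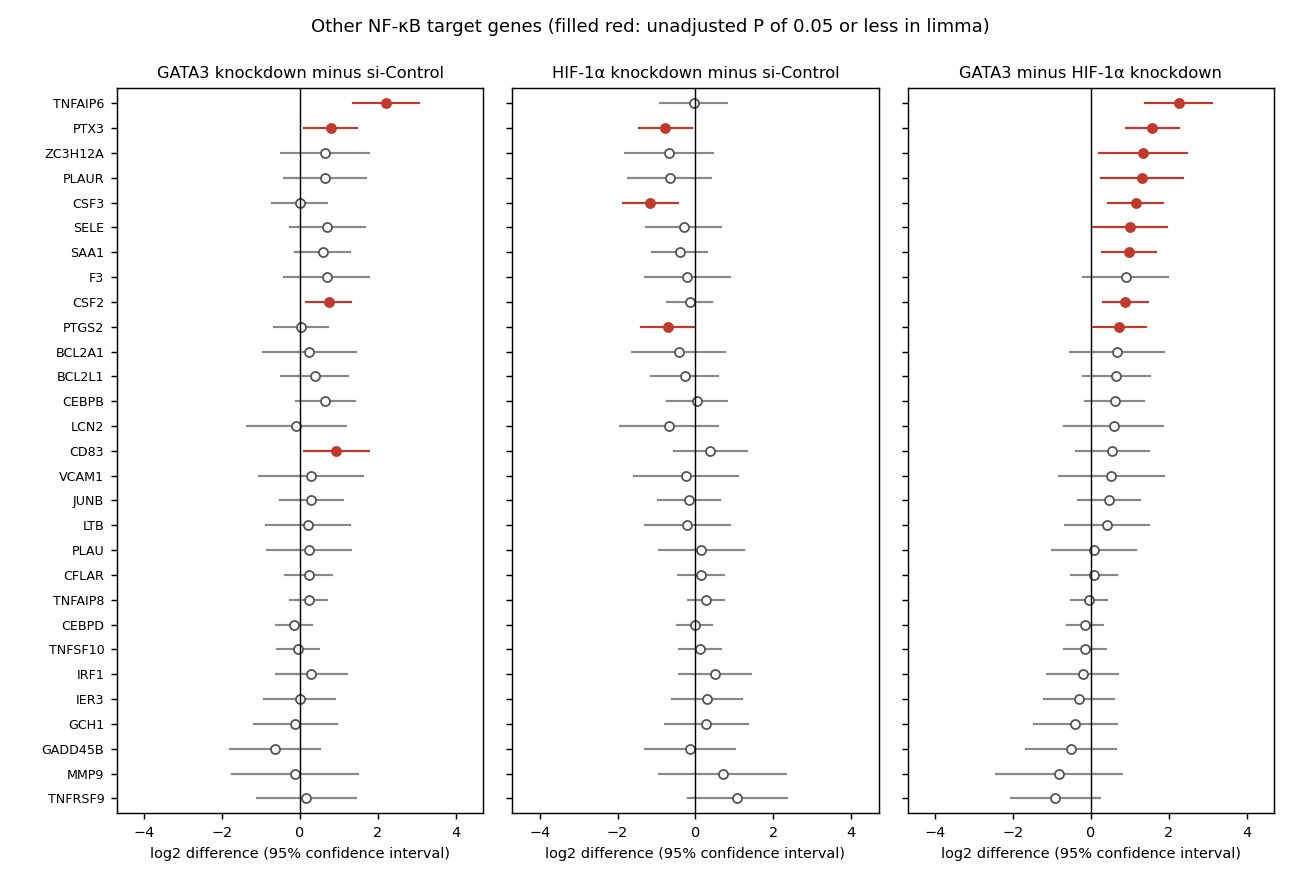
Log2 difference of 29 other NF-κB target genes in the 3 comparisons with the 95% confidence interval from limma, ordered by the difference between the knockdowns, red for an unadjusted P of 0.05 or less. There are 4, 3 and 9 red points, and CSF2 was not well above background on any array.

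The signalling components were also described by their median log2 difference, which was 0.00351 in GATA3 knockdown, 0.00107 with HIF-1α silenced and 0.053 between them. In GATA3 knockdown TNFRSF12A, a receptor of the TNF family, was 1.26 higher and the double-stranded RNA sensor TLR3 was 0.83 lower than in si-Control cells, each past the unadjusted threshold. TLR3 was fitted without GATA3 knockdown array 2 and HIF-1α knockdown array 1. TNFRSF12A passed in 2 of 9 fits with an array left out, and was 0.67 without si-Control array 1, and TLR3 passed in 6. In HIF-1α knockdown BCL10, an adaptor of lymphocyte and lectin receptor signalling, was 1.68 lower and TAX1BP1, a partner of TNFAIP3, was 1.03 lower. Both calls were lost without si-Control array 3, at -1.01 for BCL10 and -0.64 for TAX1BP1, and without HIF-1α knockdown array 1. In each comparison with si-Control cells 2 of 44 components passed (4.55%), against 2.97% of all genes for GATA3 and 5.24% for HIF-1α.

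Between the knockdowns 8 of 44 components passed (18.2%), against 12.1% of all genes. TBK1, an IKK-related kinase, was 1.24 higher in GATA3 knockdown, AZI2, its adaptor, 1.33 higher, BCL10 1.5 higher, TAX1BP1 1.04 higher and TLR6 1.11 higher, with TLR6 missing on array 1 of each knockdown. TBK1 passed whichever array was left out, as did CD40 and IRAK3, which were lower in GATA3 knockdown. Of 9 such fits AZI2 passed in 8, TAX1BP1 in 6, BCL10 in 5, NFKBID in 5 and TLR6 in 2, and TLR6 was 0.42 without HIF-1α knockdown array 3. The lower genes were NFKBID, another nuclear IκB, by -1.10, the receptor CD40 by -0.89, and IRAK3, a brake on Toll-like receptor signalling. IRAK3 was not well above background on any GATA3 knockdown array and at least 1.84-fold lower there (adjusted P = 0.322 in limma), with log2 means of 7.80 in GATA3 knockdown and 8.73 with HIF-1α silenced. The mean of the 2 CD40 probes gave -0.10, so that call rested on 1 probe.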

How the data were processed

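RNA of OEC-M1 cells was labelled with 1 dye and read on 9 arrays. The authors deposited scanner intensity files from Agilent Feature Extraction 10.5.1.1, per the submitters' processing notes, with the median signal of each spot and its local background, with no scaling across arrays, and a log2 table. The deposited log2 values were within 0.001 of the log2 processed signal less 1 constant per array, for 100% of singly spotted probes, which sets the 75th percentile at about 0. The supplementary methods give removal of non-uniform spots, background correction, quantile normalization, limma and a P of 0.05.

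Here R 4.3.3 and limma 3.58.1 were used. Median signals were corrected with normexp (offset 50), non-uniform spots were set to missing, arrays were quantile normalized, control spots were removed and spots of a probe were averaged. Of 58201 probes 31104 matched a RefSeq symbol by accession, and the brightest probe stood for a gene. All 9 arrays entered 1 model with lmFit and eBayes, two-sided, and adjusted P values are Benjamini-Hochberg over all genes tested. Groups came from the sample labels. Array numbers coincide with the 3 slides. Precision is limited by the number of arrays. Where all arrays of a group left a probe near background, a fold is a lower bound. The dim side was then set per array to the lowest well-measured signal or the probe's own, whichever was higher. The fit was tested on simulated data.

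The members and lists were chosen with earlier results of these data known. Members were named with the value on every array when they had an unadjusted P of 0.05 or less or an absolute log2 difference of 1 or more in any comparison, as were NFKB1, RELA, NFKBIA and TNFAIP3 in any case. Genes of the other lists were named at a P of 0.05 or less. A gene of the target list and a gene of the marker list are not reported here, and counts leave them out. The values on each array of other genes, the motifs and the printed promoters were chosen after the results were seen. Alternatives were no background correction, the processed signal at the 75th percentile, 75th percentile scaling after normexp, the authors' log2 table, exclusion of dim probes, averaging all probes of a gene, a replicate block, eBayes with trend and robust, adjusted P, each array left out, and control spots left out before quantile normalization, the last chosen after seeing the data. Except where probes were averaged, a gene kept its probe in each, which was decided after a first look at the results.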

Additional observations from a re-analysis of the deposited data

How the results depend on the processing

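The number of members past the unadjusted threshold in limma was 2 in GATA3 knockdown, 2 in HIF-1α knockdown and 9 between the knockdowns. With 1 array left out it ranged from 1 to 13, from 0 to 7 and from 7 to 14. Over the same fits the share of all genes that passed ranged from 2% to 12.7%, from 2.98% to 10.2% and from 5.71% to 20.6%. The median over the members ranged from 0.15 to 0.47, from -0.33 to -0.027 and from 0.21 to 0.54. With adjusted P the count of members was 0 in all 3 comparisons. With the replicate block, where the replicate number is also the slide, it was 6, 5 and 14. The correlation of deviations between arrays of the same number lay between -0.19 and 0.72, so the numbers were not shown to pair the samples, and the block is given as a slide batch. No other setting moved a count by over 1.5 times or turned a median over the members. Scaling to the 75th percentile after normexp shifted the median of all genes between the knockdowns by 0.15, and the median over the members was then 0.52, still above it. Values of NFKB1 and NFKBIA that did not pass changed sign with an array left out. NFKB1 in GATA3 knockdown ranged from -0.27 to 0.80, and was -0.27 without si-Control array 1 and -0.04 without GATA3 knockdown array 3. NFKBIA in HIF-1α knockdown ranged from -0.51 to 0.0195, its value without si-Control array 3. With dim probes left out BIRC3 was not tested. The control spots alternative, chosen after seeing the data, kept all counts of members at 2, 2 and 9. With 3 arrays per group, signals near background limit BIRC3, IRAK2 and CYLD most.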
